A study of Homo sapiens with 6 samples.

Results

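The miRNAs described here are the members of the deposited table whose number, directly after hsa-miR-, is 3000 or higher. There were 69 of them among 413 miRNAs, and the 293 miRNAs numbered under 1000 served as the background. The remaining rows were 34 miRNAs numbered from 1000 to under 3000 and 17 members of the let-7 family. Small RNA libraries had been made from MDA-MB-231 cells, an established line from a human triple-negative breast tumour with mesenchymal-like character, after 24 h with Withaferin A (WA, 2 µM), a steroidal lactone of Withania somnifera, in 3 libraries, and from control cells in 3 libraries. The sample labels describe the control cells as not treated with WA, and the study's methods name DMSO as their vehicle, so the control group is called vehicle here. All 6 libraries came from the same cell line, and the study describes the replicates as independent, while the labels do not say whether they were separate cultures, so the p-values measure the spread between these libraries, whatever its source.

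The value of each miRNA in each library was its number of reads scaled by the authors with one size factor for each library, and is called the normalized value. Within a library all values fell on multiples of 1 step, and with a step taken as a read the totals were 710878 to 4778066 reads in the vehicle group and 156442, 564882 and 2232934 reads in WA replicates 1, 2 and 3. A listed 0 therefore allows up to 3 reads, a normalized value of 17.4, 5.36 and 2.25 in the WA replicates and of 0.857 to 4.06 in the vehicle libraries, for counting error only. The 5 miRNAs listed here for a mesenchymal-like breast line (miR-21-5p, miR-221-3p, miR-222-3p, miR-31-5p and miR-100-5p) were all in the table. Their summed level was 290842 to 429694 CPM, reads scaled to a common library total, in vehicle and 185652 to 370035 CPM in WA. This sum does not show the level of each. Of the markers of other cells, 4 of 5 epithelial miRNAs summed to 140 to 1891 CPM in vehicle and 0 to 739 CPM in WA, miR-486-5p of the red cell and serum list had 360 to 909 CPM and 0 to 729 CPM, miR-9-5p of the neuron list had 80.2 to 280 CPM and 62.2 to 607 CPM, and the liver miRNA miR-122-5p had at most 11.3 CPM. No miRNA of the leukocyte or muscle lists was in the table, and the part of other cells in the results below was not tested. WA replicate 3 stood apart from the other WA libraries, and results are therefore given per library and with and without it.

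A miRNA gene is transcribed into a hairpin that Drosha and Dicer cut to a short duplex, and a strand of this duplex, from the 5′ (5p) or 3′ (3p) arm, is loaded into an Argonaute protein. The seed near its 5′ end pairs with target mRNAs. Numbers are given in order of registration, so high numbers belong to miRNAs annotated late, mostly from deep sequencing. Many of them are weakly expressed, and some sit in short introns whose hairpin is released by splicing rather than by Drosha (mirtrons), or have a sequence that other RNA classes also contain.

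Mature sequences were found in the RefSeq table (GRCh38.p14) for 57 of the 69 members. Those below are printed 5′ to 3′ with the seed, bases 2 to 8, in capitals. The first lines are the 5 members that passed the test between the groups, the next is the close relative of the last of them, 3 further lines are members of the highest levels in vehicle cells, and the last 7 are members that were still listed above 0 in the shallow WA libraries, with miR-27a-3p, which is no member, added for its likeness to miR-9985.
miR-3940-3p: cAGCCCGGaucccagcccacuu
miR-5010-3p: uUUUGUGUcucccauuccccag
miR-4787-3p: gAUGCGCCgcccacugccccgcgc
miR-4707-5p: gCCCCGGCgcgggcggguucugg
miR-6511b-3p: cCUCACCAccccuucugccugca
miR-6511a-3p: cCUCACCAucccuucugccugc
miR-3615: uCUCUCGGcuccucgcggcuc
miR-4521: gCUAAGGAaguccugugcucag
miR-7974: aGGCUGUGaugcucuccugagccc
miR-7977: uUCCCAGCcaacgcacca
miR-12135: uAAAGGUUuguuuguaaa
miR-5100: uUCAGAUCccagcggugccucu
miR-4485-3p: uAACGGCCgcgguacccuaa
miR-3613-5p: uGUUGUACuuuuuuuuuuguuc
miR-4497: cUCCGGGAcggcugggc
miR-9985: uUCACAGUggcuaagcuau
miR-27a-3p: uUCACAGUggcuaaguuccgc

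Every member was listed above 0 in every vehicle library, and most were listed at 0 in the first and second WA libraries. All 34 miRNAs numbered 1000 to under 3000 were also above 0 in every vehicle library. No row of the table was at 0 in all 3 vehicle libraries, while 41 of 413 were at 0 in all 3 WA libraries. The table thus holds no miRNA seen only in WA, which fixes part of this direction in advance. The vehicle libraries each had 69 members above 0, and WA replicates 1 to 3 had 8, 9 and 43, which is 11.6%, 13% and 62.3% of the members. Among the miRNAs numbered under 1000, 273, 290 and 291 of 293 were above 0 in vehicle, and 212, 229 and 277 in WA, or 72.4%, 78.2% and 94.5%. Thus 60 of 69 members (87.0%) were at 0 in both WA replicates 1 and 2, against 60 of 293 (20.5%) of the lower numbers and 34.4% of all rows. Among the 34 miRNAs numbered 1000 to under 3000 it was 22 (64.7%), so a high share was not particular to the members. Of these 60 members, 37 were above 0 in WA replicate 3. The other 23 were at 0 in all 3 WA libraries, as were 10 miRNAs numbered under 1000 and 8 of the 34 numbered 1000 to under 3000. In such bulk samples fewer cells with a miRNA and less of it per cell cannot be told apart, and the values are relative to the other miRNAs of the library.

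**Figure D1:**
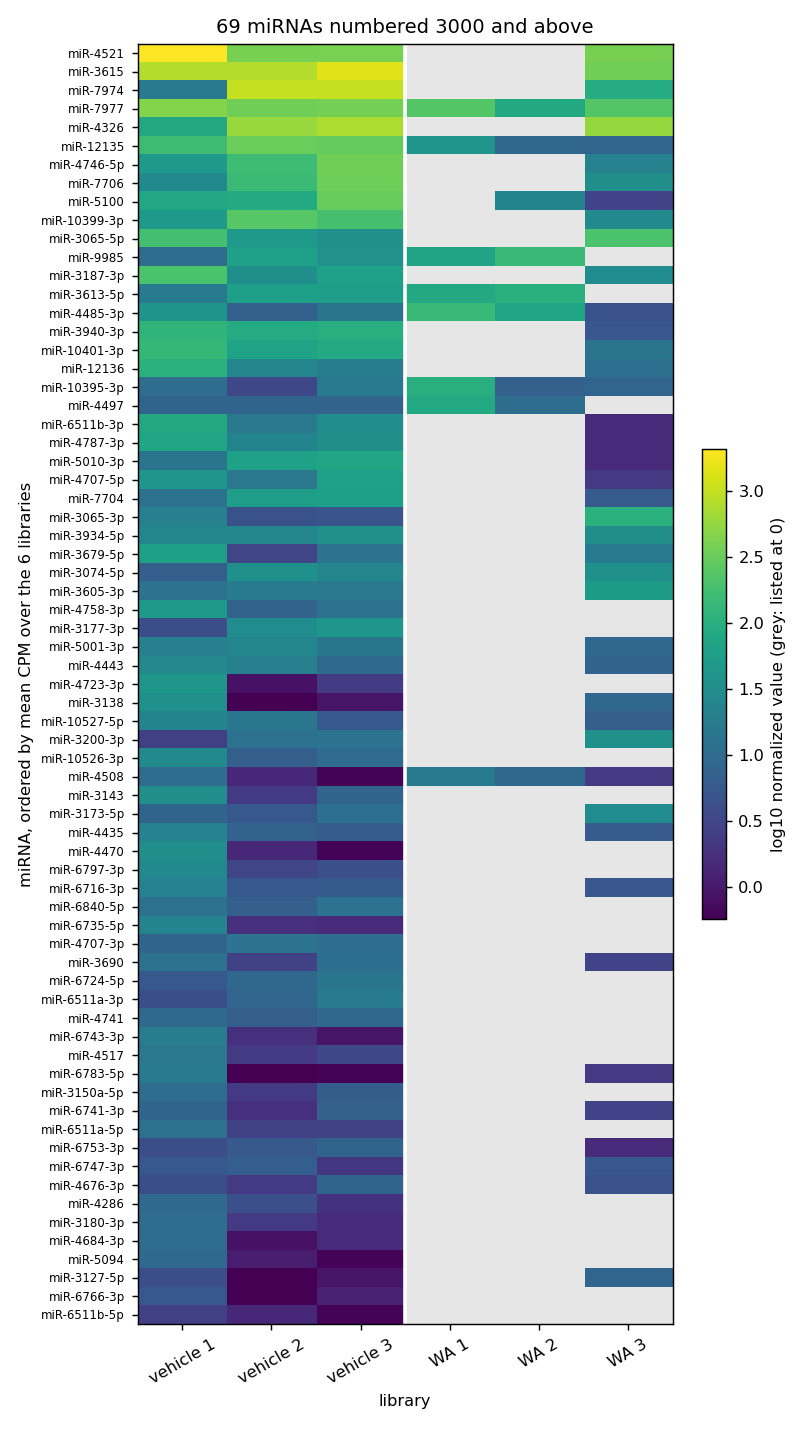
Normalized value of each of the 69 miRNAs numbered 3000 and above (rows, ordered by mean CPM) in the 3 vehicle and 3 WA libraries (columns), as colour on a log10 scale, with grey for a listed 0. All rows are coloured in the vehicle columns, 8 and 9 rows in WA 1 and WA 2, and 43 rows in WA 3.

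The 2 libraries with the fewest members above 0 were also the 2 with the fewest reads. The comparison was therefore repeated for miRNAs whose lowest vehicle value lay over the limit of 3 reads in WA replicates 1 and 2, an alternative chosen after the data were seen. Such rows were kept through their vehicle values, and the sets compared were not matched in level. These shares therefore describe the rows and cannot test the part of depth. Of 16 such members, 13 were at 0 in both libraries (81.2%), against 30 of 196 miRNAs numbered under 1000 (15.3%) and 6 of 15 numbered 1000 to under 3000 (40%). In WA replicate 2 alone 32 of 39 members over its limit were at 0 (82.1%), against 50 of 244 (20.5%), and in WA replicate 3 it was 16 of 53 (30.2%) against 15 of 263 (5.70%). With every library thinned to 156442 reads, 60, 45 and 47 members were above 0 in vehicle and 8, 7 and 27 in WA. Thinning matched the library totals, with a step taken as a read, and lowered the number of members seen in the vehicle libraries as well. The lower numbers had 262, 250 and 262 above 0 in thinned vehicle libraries and 212, 223 and 246 in thinned WA libraries.

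**Figure D2:**
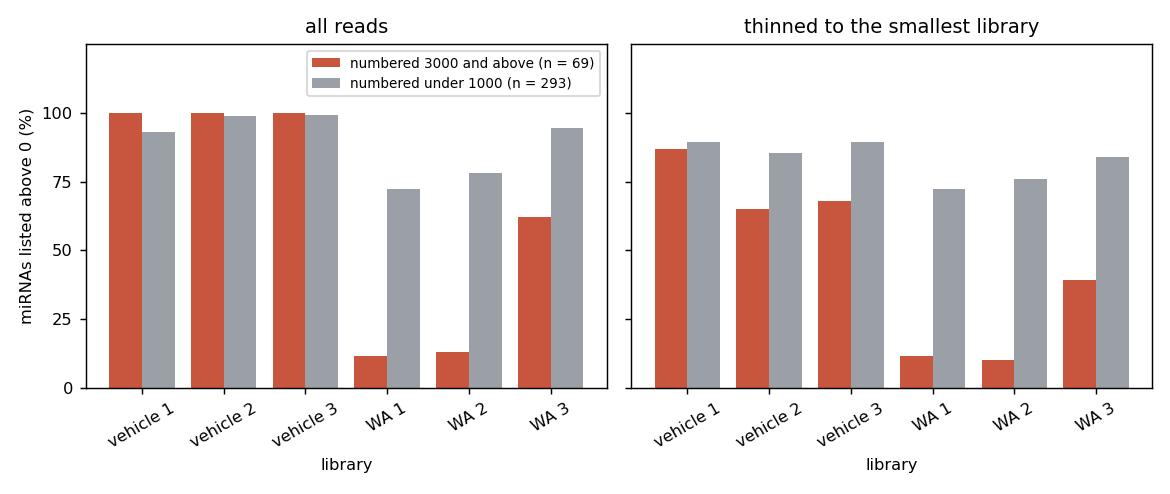
Percent of the miRNAs numbered 3000 and above (red, n = 69) and under 1000 (grey, n = 293) that were listed above 0 in each library, with all reads (left) and with every library thinned to 156442 reads (right). With all reads the red bars stand at 100% for vehicle and at 11.6%, 13% and 62.3% for WA.

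In vehicle cells the members were low. The median of their mean normalized values was 14.2, from 1.58 for miR-6511b-5p to 1013 for miR-3615, while the median of the miRNAs numbered under 1000 was 159. Only 11 members (15.9%) had a vehicle mean over 100, against 55.3% of the lower numbers, and 27 members lay under 10. All members together took 5780, 3652 and 5058 CPM in vehicle and 850, 459 and 1428 CPM in WA. The ranges of the summed levels did not overlap. The 5 members of highest vehicle level held 61.7% of the members' vehicle CPM.

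Between libraries, the members' profile was alike in vehicle replicates 2 and 3 (Pearson's r = 0.95 on the log scale across 69 miRNAs, which share their library's depth) and less so between either of them and vehicle replicate 1 (0.59 and 0.60). Vehicle replicate 1 had the highest of the 3 vehicle values for 41 of the 69 members. WA replicates 1 and 2 were alike (r = 0.91), mostly in their zeros, and WA replicate 3 had r = 0.01 and -0.03 with them and 0.55 to 0.64 with the vehicle libraries. These coefficients describe the libraries and carry no test.

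By limma on log2(normalized value + 1), with Benjamini-Hochberg adjustment over all 327 miRNAs that reached a normalized value of 10 in at least 3 libraries, 5 members were called at an adjusted p under 0.05, all of them lower in WA. Of all tested miRNAs 5.5% were called, 5.2% lower and 0.306% higher. The filter was passed by 30 of the 69 members, 7 of them through the vehicle libraries alone. The share of called members among those that passed is therefore no measure of the whole set. All 5 called members were among the 7, so they entered the test only through the group where they were higher. Their adjusted p-values carry this selection. Of the 260 tested miRNAs numbered under 1000, 7 were called lower and 1 higher. By the study's criteria, a log2 fold change of at least 1.5 with an unadjusted p under 0.05, 18 tested members were lower and 0 higher, where 21.7% of all tested miRNAs were lower and 4.59% higher. In the listed values the groups did not overlap for 16 members, all lower in WA, with 19.6% of all tested miRNAs not overlapping in that direction and 7.65% in the other. The log2 fold change was below 0 for 28 of the 30 tested members, and its median was -4.39, beside -0.57 for the tested miRNAs numbered under 1000 and -0.91 for all tested.

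With no filter, all 69 members entered the fit, and 19 were called lower and 0 higher where 11.1% of the 413 miRNAs were called lower and 1.69% higher, 12.8% in all. The study's criteria were met by 44 members, each lower, beside 28.3% of all miRNAs lower and 5.33% higher. The groups did not overlap for 43 members, each lower in WA, beside 26.6% of all miRNAs in that direction and 7.75% in the other. With or without the filter, WA replicate 3 alone decided this for members at 0 in WA replicates 1 and 2. These were 60 of the 69, and none of them could be higher without overlap. Only 16 of the 69 had a lowest vehicle value over the limit of 3 reads in both WA replicates 1 and 2. Among the 293 lower numbers 16 were called lower and 7 higher in the fit with no filter. The median log2 fold change of all members was then -2.72, beside -0.61 for the lower numbers and -1.31 for all rows. This scale can understate or overstate the change of miRNAs with low values. The pseudocount draws low values together, while a listed 0 enters as 0 although it allows up to 17.4 in WA replicate 1 and 5.36 in WA replicate 2. Values of 0 also make the size of a fold change depend on the pseudocount. The number of calls rested on single libraries. It was 24 of the 30 tested members without WA replicate 3, where 45.0% of all tested miRNAs were called, 2 without vehicle replicate 1, and 0 without any of the other 4 libraries, although 11 to 13 tested members then still had an unadjusted p under 0.05.

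**Figure D3:**
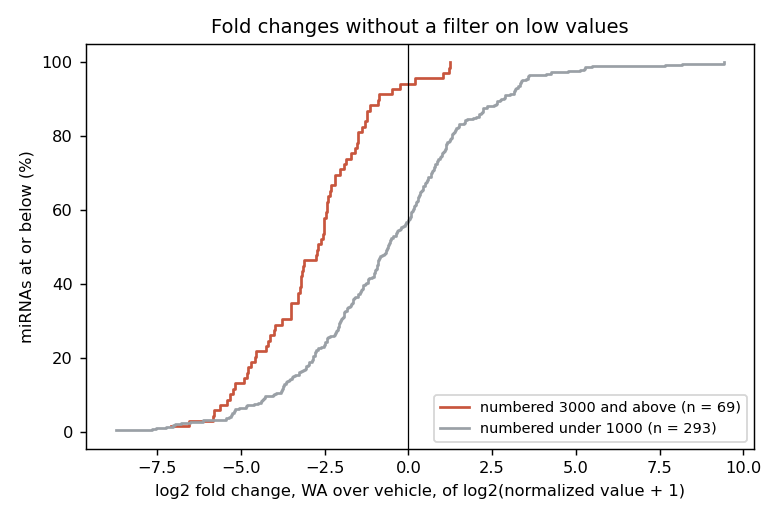
Cumulative percent of miRNAs (vertical axis) at or below a log2 fold change of WA over vehicle on the log2(normalized value + 1) scale (horizontal axis), with no filter, for miRNAs numbered 3000 and above (red, n = 69) and under 1000 (grey, n = 293). The red line crosses 0 at 94.2%, and the grey line at 57.3%.

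Of the 5 members called, miR-3940-3p had the largest fall. It had normalized values of 123, 89.7 and 100.3 in vehicle and of 0, 0 and 5.26 in WA. Every WA value lay under every vehicle value, and at its lowest vehicle value 15.5 and 50.2 reads would stand in WA replicates 1 and 2. The log2 fold change was -5.83 ± 1.15 (SE, adjusted p = 0.0344, limma). Its mature sequence lies at chr19:6416434-6416455 on the minus strand of GRCh38, in an intron of KHSRP, which encodes a KH-domain protein that binds AU-rich mRNAs and the loops of some miRNA precursors. An end of the hairpin is 2 bases from a splice site of that intron. From these libraries the study also listed miR-3940-3p among its top 5 lower miRNAs, and it measured these by qRT-PCR. It did not name miR-3940-3p among the miRNAs that this assay bore out.

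The 4 other called members were lower in level and were each listed at 0 in WA replicates 1 and 2 and at no more than 2.25 in WA replicate 3. miR-5010-3p had 13.5, 61.7 and 73.1 in vehicle and 0, 0 and 1.5 in WA (log2 fold change -4.91 ± 1.00, SE, adjusted p = 0.0344, limma). miR-4787-3p had 71.8, 22.8 and 32.7 in vehicle and 0, 0 and 1.5 in WA (-4.84 ± 0.906, adjusted p = 0.0300, limma). The former lies in an intron of ATP6V0A1, a subunit gene of the vacuolar proton pump, at chr17:42514267-42514288 on the plus strand, with a hairpin end 19 bases from a splice site. The latter lies at chr3:50675130-50675153, plus strand, in an exon of DOCK3 outside the coding sequence. miR-6511b-3p had 82.6, 15.4 and 31.8 in vehicle and 0, 0 and 1.5 in WA (-4.71 ± 0.964, adjusted p = 0.0344, limma). miR-4707-5p had 42.0, 14.9 and 62.0 in vehicle and 0, 0 and 2.25 in WA (-4.56 ± 0.976, adjusted p = 0.0417, limma). In the listed values none of the 5 overlapped between the groups. For miR-5010-3p, miR-6511b-3p and miR-4707-5p, however, only 2.34, 2.66 and 2.56 reads would stand in WA replicate 1 at the lowest vehicle value, which is under the limit of 3 reads, so the 0 of that library does not separate them from vehicle. For miR-4787-3p it would be 3.94 reads. The exact permutation test over libraries gave each its smallest possible p with 3 against 3, 0.1.

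Leaving out a single library changed these calls. Over the 6 fits that each leave out a library, the adjusted p ran from 0.000862 to 0.175 for miR-3940-3p, with the low end reached without WA replicate 3, and miR-5010-3p and miR-4787-3p were called in 2 of the 6 fits and the other 3 members in 1. The log2 fold change of miR-3940-3p stayed between -6.71 and -5.38. The residual reads of these members in WA were all in replicate 3.

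4 more members were among the 5 with the lowest log2 fold change and no overlap, and no tested member was higher in WA without overlap. These 4 did not pass the adjusted test. miR-3615 had 802, 813 and 1424 in vehicle and 0, 0 and 353 in WA (log2 fold change -7.11 ± 2.28, SE, adjusted p = 0.118, limma). At its lowest vehicle value 138 reads would stand in WA replicate 1 and 449 in WA replicate 2, where it was listed at 0. miR-4746-5p had 47.4, 161 and 354 against 0, 0 and 21.8 (-5.63 ± 1.62, adjusted p = 0.0919, limma). miR-10399-3p had 48.8, 245 and 185 against 0, 0 and 28.5 (-5.41 ± 1.65, adjusted p = 0.107, limma), and miR-10401-3p had 134, 65.4 and 86.2 against 0, 0 and 13.5 (-5.24 ± 1.36, adjusted p = 0.0731, limma). In each of the 4 the third WA library was 1.71 to 4.84 times under the lowest vehicle library, and the other WA libraries were at 0. miR-3615 (chr17:74748663-74748683, plus strand) and miR-10399-3p (chr7:139044100-139044120, minus strand) both lie in exons outside the coding sequence, the former in NHERF1, a scaffold protein gene, and the latter in ZC3HAV1, which encodes the zinc finger antiviral protein.

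The members of the highest mean CPM over the 6 libraries were miR-4521, miR-3615, miR-7974, miR-7977 and miR-4326, and 4 of them were listed at 0 in both shallow WA libraries while WA replicate 3 held them at up to vehicle level. miR-4521 (chr17:8186948-8186969, plus strand, outside annotated genes) had 2072, 382 and 399 in vehicle and 0, 0 and 384 in WA. miR-4326 had 81.3, 594 and 755 in vehicle and 0, 0 and 574 in WA. miR-7974 (chr19:11495544-11495567, minus strand) had 16.3, 996 and 1006 in vehicle and 0, 0 and 90.2 in WA. The groups of these 3 members overlapped, with adjusted p-values of 0.143, 0.229 and 0.176 (limma). The vehicle libraries differed among themselves as well, since vehicle replicate 1 was the highest for miR-4521 and by far the lowest for miR-7974 and miR-4326. At its lowest vehicle value, miR-4521 would have 65.8 reads in WA replicate 1 and 214 in WA replicate 2.

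miR-7977 stood alone among these. It had 454, 350.4 and 376 in vehicle and 232, 84.0 and 231 in WA, so that it was found in every library and the groups did not overlap, but the difference did not pass the test (log2 fold change -1.24 ± 0.804, SE, adjusted p = 0.367, limma). Its share of the members' reads was 8.15%, 7.03% and 5.79% in vehicle and 30.1%, 18.1% and 9.63% in WA. It was also the only member with a value of at least 10 in every library. The 18-base sequence is annotated at chr3:176515103-176515120 on the plus strand, opposite to the non-coding gene LINC01208.

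**Figure D4:**
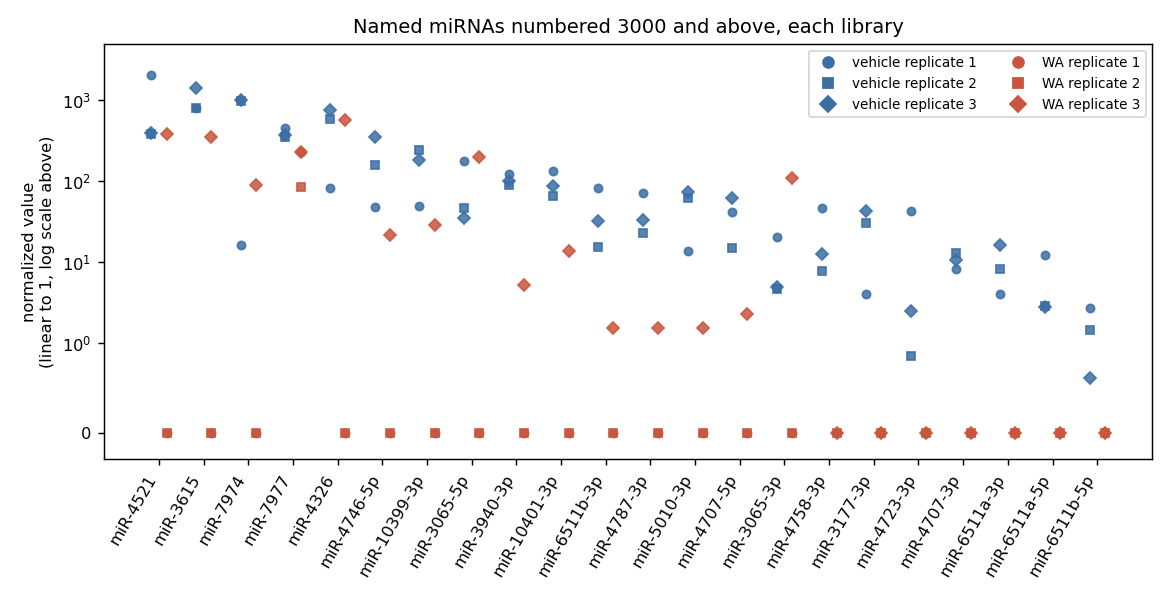
Normalized values (vertical axis, linear up to 1 and on a log scale above) of the 22 members named by a fixed rule, with vehicle libraries in blue and WA libraries in red and the replicate number as the marker shape. WA replicates 1 and 2 lie at 0 and cover each other for all of them except miR-7977, and WA replicate 3 lies within or above the vehicle values for miR-4521, miR-7974, miR-4326, miR-3065-5p and miR-3065-3p.

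9 members were above 0 in WA replicate 1 or 2, and apart from miR-7977 they were singled out after their values were seen. Together they held 14.0% to 18.0% of the members' reads in the vehicle libraries, 100% in WA replicates 1 and 2 and 10.7% in WA replicate 3. They fell into groups of different direction. miR-12135, annotated in an intron of NEO1, had 156, 321 and 296 in vehicle and 40.6, 8.93 and 8.26 in WA, without overlap (log2 fold change -3.98 ± 1.16, SE, adjusted p = 0.0943, limma). miR-5100 had 75.8, 86.0 and 306 in vehicle and 0, 23.2 and 3.01 in WA, also without overlap (adjusted p = 0.117, limma). Neither passed the adjusted test.

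4 of the others were above every vehicle library in both WA replicates 1 and 2. miR-9985 had 10.8, 62.0 and 36.4 in vehicle and 69.6, 145 and 0 in WA. miR-3613-5p had 16.3, 58.8 and 54.4 in vehicle and 81.2, 104 and 0 in WA. Both were listed at 0 in WA replicate 3, where 14.4 and 21.6 reads would stand at their lowest vehicle value. miR-4497 had 8.13, 8.0 and 7.64 in vehicle and 87.0, 10.7 and 0 in WA, which rests on 15 and 6 reads in WA replicates 1 and 2. miR-4485-3p had 39.3, 7.14 and 13.4 in vehicle and 145, 71.5 and 4.51 in WA, from 25, 40 and 6 reads. For the last 2 of the 9 the groups overlapped in WA replicates 1 and 2 as well. miR-4508 had 10.8, 1.43 and 0.611 in vehicle and 17.4, 8.93 and 2.25 in WA, and the value in WA replicate 1 is 3 reads. miR-10395-3p was high in a single library, with 10.8, 3.43 and 15.6 in vehicle and 98.6, 7.15 and 8.26 in WA. Of these 6 members, miR-9985, miR-3613-5p, miR-4485-3p and miR-10395-3p passed the filter, and over all libraries their groups overlapped and the adjusted p ran from 0.617 to 0.889 (limma).

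Some of these sequences are close to those of other RNAs. miR-9985 shares its seed and its first 15 bases with miR-27a-3p, a far more abundant miRNA of which the normalized value was 3114, 21134 and 28678 in vehicle and 21305, 23105 and 4932 in WA. A read that ends within these bases could come from either, and how the authors counted such reads is not given in the sources used here. Across the 6 libraries, both had their lowest vehicle value in replicate 1 and both were lower in WA replicate 3 than in the other WA libraries. The same held for miR-3613-5p, which has another seed, and whether miR-9985 and miR-27a-3p share reads was not tested. The only exact copy of the miR-9985 sequence found in GRCh38 lies on chromosome Y (chrY:4606140-4606158, plus strand). Whether these cells carry that copy was not tested. The sequence of miR-4485-3p is found 4 times in GRCh38, once of them in the mitochondrial 16S ribosomal RNA gene MT-RNR2, so that the sequence alone does not tell the sources apart. A member outside these 9, miR-12136, was likewise found a second time in the mitochondrial tRNA gene MT-TS1, with 107, 23.7 and 18.3 in vehicle and 0, 0 and 11.3 in WA. These were the 2 members with a mitochondrial copy, and no miRNA numbered under 1000 had any. Of the 7 members shorter than 20 bases, miR-7977, miR-12135, miR-9985 and miR-4497 were among those above 0 in WA replicate 1 or 2.

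23 members were at 0 in all 3 WA libraries. The highest vehicle means among them belonged to miR-3177-3p, miR-4758-3p and miR-4723-3p, each of which missed the filter. miR-3177-3p (chr16:1735038-1735058, plus strand, intron of MAPK8IP3) had 4.06, 30.3 and 42.5 in vehicle. miR-4758-3p (chr20:62332490-62332512, minus strand, intron of the laminin gene LAMA5) had 46.1, 7.71 and 12.5, and miR-4723-3p (chr17:28360712-28360733, plus strand, intron of TMEM199) had 43.3, 0.857 and 2.45. No fold is given for them, since their WA group was listed at 0 throughout. All 3 had a lowest vehicle value under the limit of 3 reads in WA replicate 1, so a decrease from it was not detectable there. WA replicate 2 could have shown miR-4758-3p at its lowest vehicle value, and WA replicate 3 could have shown miR-3177-3p and miR-4758-3p.

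WA replicate 3, the deepest of the WA libraries, was also set against vehicle on its own. It is a single library of 2232934 reads, beside 710878, 4778066 and 4196707 in vehicle replicates 1 to 3. There 47 of the 69 members lay under every vehicle library, 16 within the vehicle range and 6 above it, and of the miRNAs numbered under 1000, 91 lay under, 96 within and 106 above. The median difference from the vehicle mean was -1.80 on the log2 scale for the members and 0.16 for the lower numbers. The 6 members above the vehicle range, named after their values were seen, were all at 0 in WA replicates 1 and 2. The highest were miR-3065-5p with 202 and miR-3065-3p with 108 in WA replicate 3. miR-3605-3p had 12.2, 16.0 and 15 in vehicle and 49.6 in that library, miR-3200-3p had 2.71, 12 and 12.8 against 35.3, and miR-3173-5p, which lies in an intron of DICER1, the gene of the enzyme that cuts miRNA precursors, had 8.13, 5.43 and 11.3 against 30.8. miR-3127-5p had at most 4.06 in vehicle and 8.26 there. With a single library on that side these differences have no replicate check.

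All 8 members that share a hairpin or a number with another member were at 0 in WA replicates 1 and 2, and in WA replicate 3 they ran from 0 to 202. Both arms of miR-3065, whose hairpin lies opposite to that of miR-338 on chromosome 17, were highest in WA replicate 3. The 5p arm had 179, 46.3 and 34.8 in vehicle and 0, 0 and 202 in WA (adjusted p = 0.343, limma), and the 3p arm 20.3, 4.57 and 4.89 against 0, 0 and 108. Their ratio thus differed between libraries, with the 5p arm above the 3p arm in each of the 4 libraries where they were found. The arms of miR-4707, in an exon of HAUS4 outside the coding sequence (chr14:22956957-22957020, minus strand, for both arms), differed otherwise. The 5p arm passed the test, and the 3p arm had 8.13, 12.9 and 10.7 in vehicle and 0 in all WA libraries and missed the filter. In the fit with no filter the 3p arm had an adjusted p of 0.0202 (limma), which rests on WA values all listed at 0, with no spread. At its lowest vehicle value 1.40 reads would stand in WA replicate 1, under the limit of 3 reads. In WA replicates 2 and 3 it would be 4.55 and 10.8 reads.

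The paralogous miR-6511a and miR-6511b have 3p sequences with the same seed, the only seed shared between 2 members with a sequence. The 3p arm of miR-6511b, in an intron of the polycystin gene PKD1 (chr16:2106679-2106701, minus strand), passed the test, as given above. The 3p arm of miR-6511a (chr16:14925980-14926001, plus strand, as annotated in a first copy) had 4.06, 8.28 and 16.2 in vehicle and 0 in all WA libraries. The 5p arms had 12.2, 2.86 and 2.75 for miR-6511a and 2.71, 1.43 and 0.611 for miR-6511b in vehicle, and 0 in all WA libraries. The 4 sequences are found 2 to 7 times in GRCh38, and the authors' counting could split reads between them, so the level of each is uncertain. In vehicle replicate 1 the 3p arm of miR-6511b was above that of miR-6511a by 82.6 to 4.06, and in vehicle replicate 3 by 31.8 to 16.2.

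By arm, 27 of 29 members named 3p, 16 of 17 named 5p and 17 of 23 named with no arm were at 0 in WA replicates 1 and 2. By number, the 15 members from 6000 to under 7000 were all at 0 there and 9 of them also in WA replicate 3, with a median vehicle mean of 6.75. The 5 members from 7000 to under 10000 had a median vehicle mean of 174, and 3 of them were at 0 in WA replicates 1 and 2. In the blocks from 3000 and from 4000 (each block ending where the next begins) it was 18 of 19 and 16 of 19. Every block had a share over 50%, beside the 20.5% of the lower numbers and 64.7% of the miRNAs numbered 1000 to under 3000.

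The members differed from the lower numbers in sequence and position. Their median GC content was 60%, with quartiles of 54.2% and 65.2%, beside 47.8% (quartiles 40.9% and 56.5%) for the 263 miRNAs numbered under 1000 with a sequence. Median length was 22 bases in both. GC content varied with the fold change in the fit with no filter in both sets, with Spearman's rho of -0.35 over 57 members and -0.19 over 263 lower numbers, which share their libraries and are no independent points. The zeros were also counted within GC classes. Under 50% GC, 5 of 8 members and 23 of 132 lower numbers (17.4%) were at 0 in WA replicates 1 and 2. From 50% to 60% it was 19 of 20 and 18 of 88 (20.5%), and at 60% or more 26 of 29 and 12 of 43 (27.9%). The share varied with level as well, where level was the mean over all 6 libraries. That mean includes the zeros of WA replicates 1 and 2, so part of this trend was fixed in advance. Under a mean normalized value of 10 over the 6 libraries, where 34 of the 69 members lay, 33 of 34 members and 11 of 20 lower numbers (55%) were at 0 there. Among miRNAs with a mean from 10 to 30, 16 of 18 members and 16 of 43 lower numbers (37.2%) were at 0 there. From 30 to 100 it was 7 of 11 and 14 of 49 (28.6%), and from 100 to 1000 it was 4 of 6 and 16 of 114 (14.0%). What part of the members' zeros goes with level, depth or base composition beyond these values was not tested.

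**Figure D5:**
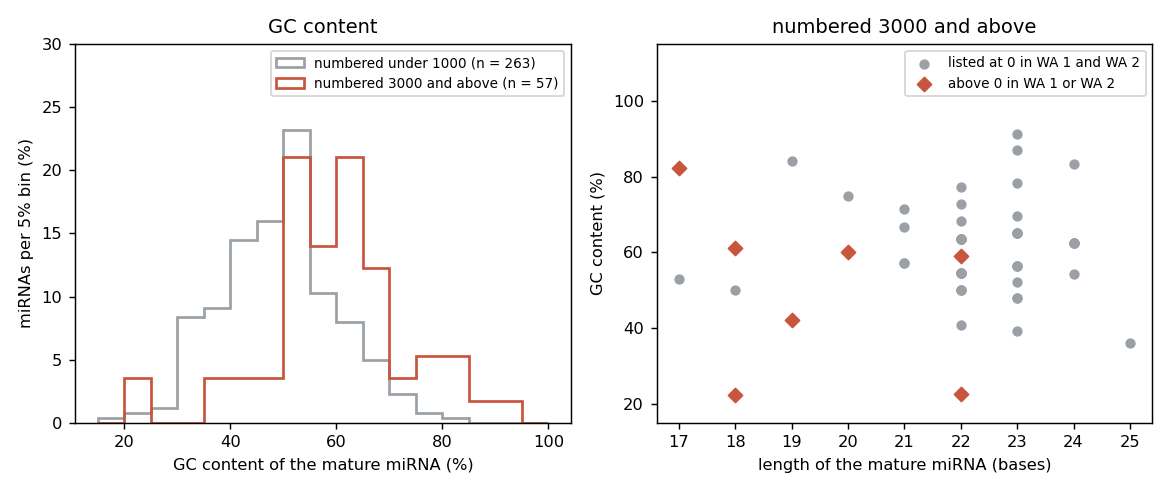
Left, GC content of the mature sequence as percent of miRNAs per bin of 5% for miRNAs numbered under 1000 (grey, n = 263) and 3000 and above (red, n = 57). Right, GC content against length in bases for the 57 members with a sequence, with red diamonds for those above 0 in WA replicate 1 or 2 and grey points for the others. The medians are 47.8% and 60%, and of the 7 members shorter than 20 bases 4 are red.

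Of the 53 members whose hairpin could be placed against GENCODE release 44, 24 lay in introns and 8 in exons of protein-coding genes, 2 in introns of lncRNA genes, 7 only opposite to a gene and 12 outside annotated genes. Of 244 placed miRNAs numbered under 1000, 120 lay in introns and 7 in exons of protein-coding genes and 73 in lncRNA genes. A hairpin end lay within 10 bases of a splice site for 10 of the 53 members (18.9%) and for 3 of the 244 lower numbers (1.23%). Both ends did so, as in a mirtron whose hairpin spans the intron, for 1 member, miR-4758-3p, and for 2 lower numbers. The 10 members with at least an end there were miR-3940-3p in KHSRP, both arms of miR-6511b in PKD1, miR-4758-3p in LAMA5, miR-4723-3p in TMEM199, miR-6766-3p in POLG, the gene of the mitochondrial DNA polymerase, miR-6797-3p in the ribosomal protein gene RPS19, miR-6743-3p in RIC8A, miR-6716-3p in PHLDB1 and miR-6753-3p in TCIRG1. All 10 were at 0 in WA replicates 1 and 2, and 6 also in WA replicate 3. Other intronic members had 13 of 14 at 0 in WA replicates 1 and 2, exonic members 8 of 8, and members outside genes on their own strand 15 of 19. The zeros thus occurred in every class of position. Among lower numbers in introns away from splice sites it was 32 of 118 (27.1%).

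Beyond the miR-6511 pair and the pair of miR-9985 with miR-27a-3p and miR-27b-3p, the members shared almost no seed. The 57 sequences held 56 different seeds, and only miR-4676-3p shared its seed with another lower number, miR-452-5p. miR-4676-3p had 4.06, 2.28 and 7.95 in vehicle and 0, 0 and 4.51 in WA. miR-452-5p had 233, 537 and 371 in vehicle and 0, 0 and 136 in WA. The 2 miRNAs were at 0 in the same libraries at levels far apart. miR-3074-5p lies on the hairpin opposite to MIR24-1 and had 6.77, 35.4 and 24.1 in vehicle and 0, 0 and 34.6 in WA. At its lowest vehicle value 1.17 reads would stand in WA replicate 1, under the limit of 3 reads, and 3.79 in WA replicate 2. miR-24-3p had 21948 and 24640 in WA replicates 1 and 2, and whether the 2 miRNAs changed apart was not tested.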

How the data were processed

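Small RNA of 3 vehicle and 3 WA libraries of MDA-MB-231 cells was used. Per the study's methods and the submitters' processing notes, the authors trimmed reads with Trim Galore, aligned them with Bowtie to GRCh38.p10, removed other non-coding RNAs, matched the rest to mature miRNAs and scaled by DESeq2. The deposited signal gives each miRNA's reads over the library's size factor. Per library, 100% of these lay on multiples of a step (tolerance 0.01 step). Too few values are low enough to prove that a step is a read, so no count model was run, and reads, CPM and thinning assume it. The 4 deposited columns of the authors' own comparison were not used.

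Values were compared with limma 3.58.1 (R 4.3.3) after log2(normalized value + 1), with a variance trend, unpaired, two-sided, with Benjamini-Hochberg adjustment over the 327 miRNAs with at least 10 in 3 libraries. Single members were also compared by exact permutation tests. Python 3.11.15 with pandas 2.3.3, scipy 1.17.1, numpy 2.4.6 and matplotlib 3.10.9 served for the rest. Mature sequences came from RefSeq (GRCh38.p14) for 57 of 69 members and were searched on both strands of GRCh38, and hosts were taken from canonical transcripts of GENCODE release 44.

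Members named are those at an adjusted p under 0.05, the 5 largest changes either way without overlap, the 5 of highest mean CPM, the 3 of highest vehicle mean listed at 0 in all WA libraries, and pairs from 1 hairpin or differing by a letter. Others were picked once their values had been seen. The members and lists were chosen with earlier results of these data known. Replicate numbers did not mark shared batches in the labels. The alternatives were other pseudocounts, filters and scalings, thinning, no trend, the replicate number as a block and each library left out.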

Additional observations from a re-analysis of the deposited data

How the results depend on the processing

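The number of members called lower was 5 and stayed at 5 with total-count scaling, trimmed-mean-of-M scaling and no variance trend, each with the same 5 members. It was 0 with a pseudocount of 0.1, 1 with a pseudocount of 10 (miR-3940-3p), 19 with no filter, 0 with a minimum of 10 in every library, where only miR-7977 was tested, 0 with upper-quartile scaling and 8 after thinning, 4 of them among the 5, where 10.0% of all tested miRNAs were called. Beside these counts of 0 by limma, 18, 0 and 18 tested members had an unadjusted p under 0.05 with the pseudocount of 0.1, the filter in every library and upper-quartile scaling. With the libraries left out singly the count ran from 0 to 24. Without a filter and without WA replicate 3, an alternative added after the data were seen, it was 50, where 203 of all 413 miRNAs (49.2%) and 123 of the 293 lower numbers (42.0%) were called.

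The 18 members that met the study's criteria became 44 with no filter, 0 with the filter in every library and 52 with no filter and without WA replicate 3, and 11 to 26 with each library left out. The 16 members whose groups did not overlap became 43, 1 and 67 under the same settings, and 16 to 29 with each library left out. Of the 67, 4 were higher in WA, and 303 of all 413 miRNAs did not overlap in that setting. Of the 29 found without WA replicate 3, 3 were higher, and 226 of 327 tested miRNAs did not overlap. The median log2 fold change of -4.39 was -6.33 with a pseudocount of 0.1, -2.11 with a pseudocount of 10, -2.72 with no filter and -1.24 with the filter in every library, and -5.15 to -3.75 with each library left out. Scaling moved the median of all tested miRNAs by 0.29 (upper quartile), 0.10 (total count), 0.06 (trimmed mean of M values) and 0.11 (thinning) on the log2 scale. Relative to that median the members stood at -3.47 in the reported fit and from -3.98 to -3.50 under these scalings. The causes of these shifts were not tested, apart from the smaller number of tested members under the strict filter.

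Samples with the same replicate number did not deviate together (r = -0.07, 0.06 and -0.09 over 327 miRNAs). These are deviations from means of 3 libraries, in which WA replicate 3 and vehicle replicate 1 stood apart, so they cannot exclude a pairing. With the replicate number as a block, 5 members were called, 4 of them the same, and 24 of all tested miRNAs in place of 18. Of the 22 named members, 14 passed the filter and the others were followed only in the settings that tested them. Over the values so obtained, 175 kept their direction and side of the threshold, 39 lost the call, 20 gained it and 0 reversed. The planned count models were not run, since the steps could not be shown to be reads. Depth limits the members most in WA replicates 1 and 2, where the lowest vehicle value of 53 of 69 members lay under the limit of 3 reads in at least 1 of them.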
